A study of Rattus norvegicus with 8 samples.

Results

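Genes named as zinc finger proteins were compared between nucleus pulposus cells carrying SOD1-K123R and cells carrying SOD1-WT. Members were the rows of the deposited expression table whose symbol holds Zfp or Znf followed directly by a digit, and 85 of 4226 rows met this rule, 83 of them annotated as protein-coding and 2 as lncRNA. The cells came from rat (Rattus norvegicus) and were depleted of SOD1, the cytosolic copper-zinc superoxide dismutase, by knockdown. They were then transfected either with SOD1-K123R, a SOD1 with a lysine-to-arginine substitution (4 libraries), or with wild-type SOD1 (SOD1-WT, 4 libraries), and both groups received 10 mM lactate for 7 days. The table heads the SOD1-K123R columns L and the SOD1-WT columns Ctrl, letters left unexplained by the labels; had L meant lactate, the contrast would not be that of the 2 SOD1 forms alone, and this was not tested. Library identifiers run without a break within each group, and they do not record handling. Whether handling differed between the groups is not known here, and any such difference could not be told apart from group. Sod1 itself was not analysed here, so the knockdown and the transfected forms were not checked. The strain and age of the rats and the means of knockdown and transfection are unstated in the sources used here.

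Most zinc finger proteins of this naming series are of the C2H2 type, in which a pair of cysteines and a pair of histidines hold a zinc ion in each finger and strings of fingers read DNA sequence. Many carry a KRAB domain, which recruits the corepressor TRIM28 and the histone methyltransferase SETDB1 and so places heterochromatin, in large part at transposable elements. Many KRAB genes lie in clusters of related copies, and some of these clusters expanded separately in different mammalian lineages. Others act outside this pathway, such as tristetraprolin, a CCCH protein encoded by Zfp36 that binds AU-rich mRNA and recruits the deadenylase that shortens its poly(A) tail.

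Expression is given as TPM, an estimate of the share of a library's transcripts that come from a gene, already corrected for transcript length, so levels can be set side by side between genes. The rows were part of the transcriptome, with column sums of 235371 to 243393 TPM in SOD1-K123R and 187515 to 198656 TPM in SOD1-WT out of a full total of 1000000, and sequencing depth is not recoverable from TPM. Among the 2890 genes tested, 244 (8.44%) had a log2 fold change between -0.5 and 0.5, so nearly unchanged genes were scarce among the rows, and a share of called genes cannot be read as a share of the transcriptome. Of 20 listed symbols for markers of nucleus pulposus cells, some of them other names of a listed gene, 8 were among the rows. Of these 8, 7 were tested, of which 4 rose and 3 fell. The chondrogenic matrix gene Acan averaged 0.645 TPM in SOD1-K123R and 1.55 TPM in SOD1-WT, and Col2a1 averaged 0.065 TPM in SOD1-K123R and was listed at 0 in each SOD1-WT library. Sox9, a chondrogenic transcription factor, averaged 3.19 TPM in SOD1-K123R and 0.40 TPM in SOD1-WT, Cd24 31.2 and 10.1 TPM, Ncam1 17.3 and 35.2 TPM, and Cdh2 2.96 and 9.43 TPM in the same groups. The 8 summed to 1113 to 1202 TPM in SOD1-K123R and 274 to 297 TPM in SOD1-WT, most of it the glucose transporter gene Slc2a1 at 1096 and 225 TPM. Of 8 listed macrophage and leukocyte markers 2 were among the rows, summing to 23.4 to 30.9 TPM in SOD1-K123R and 5.44 to 8.04 TPM in SOD1-WT. Cd68 read 22.8 to 29.8 TPM in SOD1-K123R and 5.44 to 7.94 TPM in SOD1-WT, and Lyz2 averaged 0.873 TPM in SOD1-K123R and 0.025 TPM in SOD1-WT. Of 6 endothelial markers only Pecam1 was among the rows, at 0.385 TPM in SOD1-K123R and 0.175 TPM in SOD1-WT, and of 6 erythroid markers none was. Of 5 tendon and annulus markers Scx and Thbs4 were among the rows and both fell, summing to 17.03 to 21.69 TPM in SOD1-K123R and 34.57 to 55.15 TPM in SOD1-WT. Of 5 bone markers 3 were, summing to 12.5 to 17.2 TPM in SOD1-K123R and 11.8 to 16.0 TPM in SOD1-WT, with Runx2 at 13.3 and 4.52 TPM and Ibsp at 1.54 and 9.22 TPM. The part of other cell types in the results below was not tested, and in bulk RNA fewer cells of a type and less RNA per cell cannot be told apart.

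The zinc finger genes moved in both directions, and 19 of the 20 with a mean of at least 5 TPM rose in SOD1-K123R. Of the 85 members, 47 averaged 1 TPM or more in the 8 libraries together and were tested with limma on log2(TPM + 1) together with all other such rows. Of these 47, 29 rose and 18 fell at a Benjamini-Hochberg adjusted p under 0.05, the highest adjusted p being 0.0107 (limma). Among them, 17 rose and 10 fell with a fitted log2 fold change of at least 1 in size. This cutoff is not a 2-fold ratio of group means, since 1 TPM was added to each value before the fit. Over all genes tested 95.7% passed, 44.6% upward and 51.1% downward, and 26.0% rose and 35.8% fell by the same cutoff. That every tested member passed therefore says little beyond how the rows were composed. All 4 SOD1-K123R values lay above all 4 SOD1-WT values for 31 members and below them for 32. Together these are 74.1% of the 85, where 82.4% of all rows had groups apart, 37.5% upward and 44.9% downward.

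The exception among those 20 was Zfp428, which fell, where 948 of the 1896 rows at that level rose and 897 fell. Between 1 and 5 TPM 10 members rose and 17 fell, and 341 and 579 of 994 rows did so. Below 1 TPM no test was made, and of 38 members the groups were apart upward for 3, apart downward for 16 and overlapping for 19, where 353, 487 and 496 of 1336 rows were so. These levels are means over both groups, so the change itself helps to place a gene. Of the 19 members that rose at 5 TPM or more, 16 reached that level in both groups, and Zfp449, Zfp68 and Zfp956 did so only in SOD1-K123R, while Zfp428 did so only in SOD1-WT. At the minimum of 1 TPM, 3 of the 29 that rose reached it only in SOD1-K123R and 10 of the 18 that fell reached it only in SOD1-WT, so no support is taken from the counts per level. The median log2 fold change was 0.74 over the 47 tested members and -0.49 over all genes tested, a comparison that the filter bears on, since the median over all 85 members was -0.18 in a fit with no filter, against -0.14 over all rows. The 85 members summed to 591.6 to 649.6 TPM in SOD1-K123R and to 325.8 to 372.5 TPM in SOD1-WT. Of that sum, the 6 most abundant members (Zfp330, Zfp36, Zfp598, Zfp496, Znf740 and Zfp395) held 56.0% in SOD1-K123R and 43.4% in SOD1-WT.

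**Figure D1:**
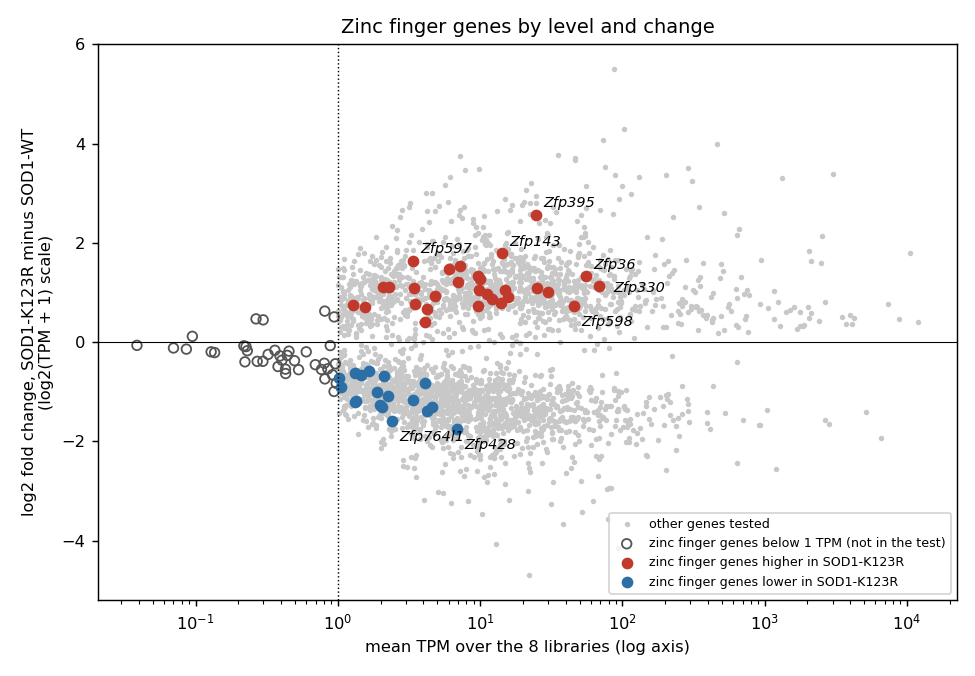
Mean TPM over the 8 libraries (horizontal, log axis) against the log2 fold change of SOD1-K123R minus SOD1-WT on the log2(TPM + 1) scale (vertical). Red points are the 29 zinc finger genes that rose, blue points the 18 that fell, open circles the 38 below 1 TPM (dotted line) and grey points the other genes tested; right of 5 TPM the zinc finger genes are nearly all red.

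The largest increase was that of Zfp395, whose human counterpart ZNF395 is a transcription factor induced by hypoxia. It read 43.9, 41.6, 40.4 and 44.8 TPM in SOD1-K123R and 5.67, 6.54, 5.58 and 7.92 TPM in SOD1-WT. The lowest SOD1-K123R library was thus several times above the highest SOD1-WT library, and the ratio of means was 6.64 (log2 fold change 2.57, SE 0.11, limma adjusted p = 1.07e-09). Zfp143, an activator that binds promoters of both mRNA and small nuclear RNA genes, read 25.2, 22.9, 23.5 and 19.7 TPM in SOD1-K123R and 5.13, 6.09, 6.28 and 5.84 TPM in SOD1-WT. Its groups were also well apart (ratio of means 3.91, log2 fold change 1.8, SE 0.11, limma adjusted p = 1.31e-08). Zfp597, imprinted in humans, stood at 4.48 to 7.20 TPM in SOD1-K123R and 0.91 to 1.5 TPM in SOD1-WT (log2 fold change 1.64, SE 0.15).

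**Figure D2:**
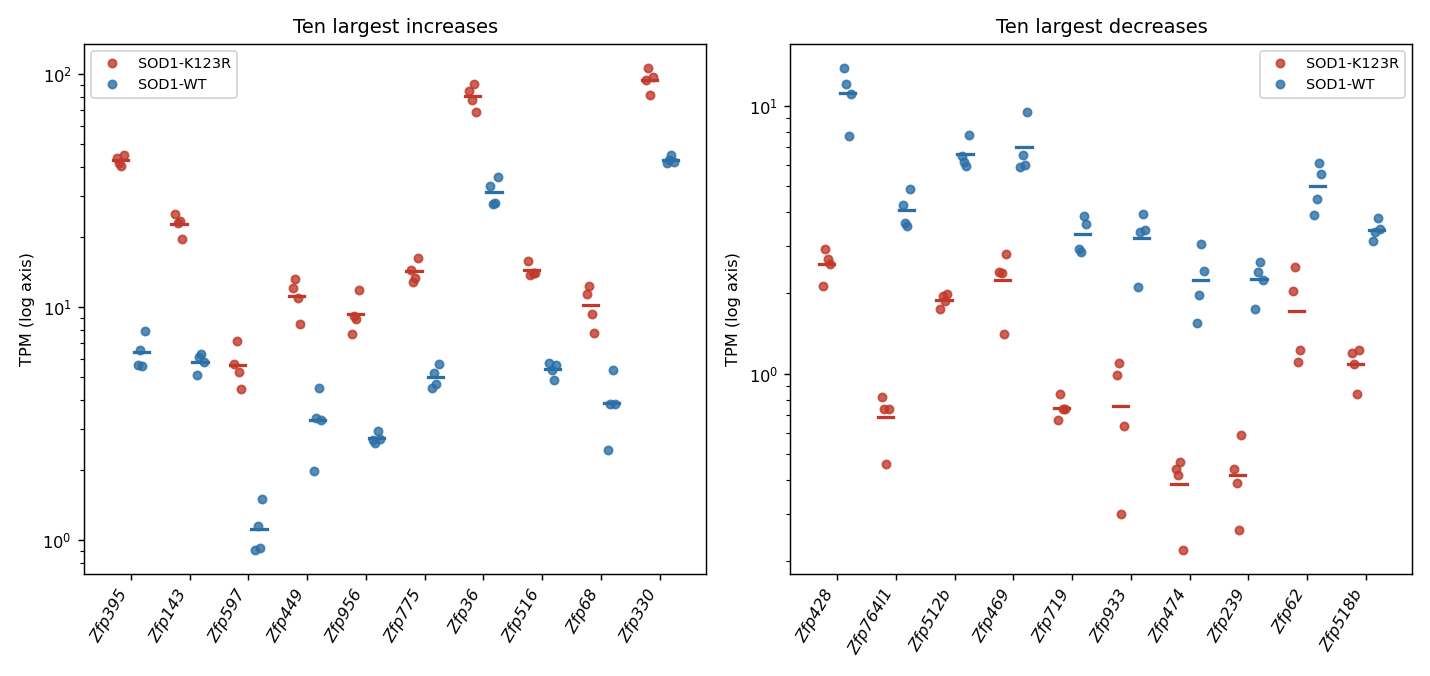
TPM (log axis) of the 10 members with the largest increases (left) and the 10 with the largest decreases (right), each point a library and each bar the mean of 4 libraries, with SOD1-K123R in red left of SOD1-WT in blue. In none of the 20 genes do the groups overlap; the genes that fell lie lower on the axis than most of those that rose.

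The sequences before the starts of 2 rising members, 2 falling members and Zfp36 are shown because these genes moved most among the matched members, with Zfp36 as the CCCH member. Each is the 250 bases before the start, from RefSeq (GRCr8 build; the build behind the expression table is not stated). Capitals mark matches on either strand to any of 6 motifs searched: ACTACAA (core of the ZNF143 site), GGGCGG (GC box), CCAAT (bound by NF-Y), CACGTG (E-box, for bHLH factors), TGACGTCA (the cAMP response element, CRE) and TGANTCA (AP-1). The windows lie for Zfp143 at chr1:173543634-173543883 (plus strand), for Zfp597 at chr10:12159283-12159532 (plus strand), for Zfp428 at chr1:89227192-89227441 (plus strand), for Zfp764l1 at chr1:191436377-191436626 (minus strand) and for Zfp36 at chr1:92799109-92799358 (minus strand). Zfp428 has 2 starts in the table, and the first along the chromosome is printed.
Zfp143: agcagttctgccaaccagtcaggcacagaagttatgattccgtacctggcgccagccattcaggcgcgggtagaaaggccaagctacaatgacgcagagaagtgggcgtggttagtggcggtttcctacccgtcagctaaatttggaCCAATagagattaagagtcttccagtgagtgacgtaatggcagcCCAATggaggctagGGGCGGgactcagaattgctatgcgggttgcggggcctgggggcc
Zfp597: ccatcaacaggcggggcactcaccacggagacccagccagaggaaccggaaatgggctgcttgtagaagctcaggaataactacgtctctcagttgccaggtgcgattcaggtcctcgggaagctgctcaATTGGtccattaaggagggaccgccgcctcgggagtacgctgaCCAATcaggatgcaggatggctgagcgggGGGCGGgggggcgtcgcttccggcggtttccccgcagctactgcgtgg
Zfp428: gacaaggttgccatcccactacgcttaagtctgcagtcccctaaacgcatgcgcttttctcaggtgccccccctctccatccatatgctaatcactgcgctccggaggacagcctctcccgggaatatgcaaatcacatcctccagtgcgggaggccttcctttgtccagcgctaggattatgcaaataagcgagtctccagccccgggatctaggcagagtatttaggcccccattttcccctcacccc
Zfp764l1: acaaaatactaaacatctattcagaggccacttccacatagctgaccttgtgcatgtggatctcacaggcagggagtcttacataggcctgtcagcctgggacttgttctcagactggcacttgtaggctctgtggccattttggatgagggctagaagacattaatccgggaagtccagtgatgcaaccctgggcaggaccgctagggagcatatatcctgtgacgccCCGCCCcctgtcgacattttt
Zfp36: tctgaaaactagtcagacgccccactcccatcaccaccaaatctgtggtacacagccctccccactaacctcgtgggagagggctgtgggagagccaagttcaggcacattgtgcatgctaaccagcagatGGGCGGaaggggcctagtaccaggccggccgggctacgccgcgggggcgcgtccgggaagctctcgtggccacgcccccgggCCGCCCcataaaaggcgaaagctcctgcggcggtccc
The rising genes Zfp143 and Zfp597 each held 1 GC box and 2 CCAAT boxes, Zfp36 held 2 GC boxes, Zfp764l1 held 1 GC box, and the strongest faller, Zfp428, held no match in this window.

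Promoters were matched by symbol for 68 of the 85 members. A GC box was found in 15 of 23 matched members that rose (65.2%) and in 3 of 13 that fell (23.1%). Over the genes tested it was found in 65.0% of those that rose and 55.9% of those that fell, and over all protein-coding genes with a promoter in 41.4%. CCAAT was found in 12 of the 23 that rose (52.2%) and 3 of the 13 that fell (23.1%). Among 32 matched members below 1 TPM, CCAAT was found in 20 (62.5%) and a GC box in 10 (31.25%). Of all 38 members below 1 TPM, 16 had groups apart downward and 3 upward, so CCAAT was not confined to rising members. Over the genes tested the shares for CCAAT were 36.1% and 37.0%. The median share of G and C bases was 56.4% in the 23 and 51.6% in the 13, and its part in these splits was not tested. The ZNF143 core occurred in 7 of 68 matched members (10.3%), against 3.45% of all protein-coding genes. The 7 were Zfp652 and Zfp81, which rose, Zfp846 and Zfp933, which fell, and Zfp286a, Zfp94l1 and Znf235, which lay below 1 TPM. CCAAT was found in 51.5% of matched members and 36.9% of all protein-coding genes, the E-box in 7.35% and 6.76%, AP-1 in 7.35% and 6.28%, and the CRE in 1 member, 1.47%, against 2.08%. These are matches of letters, and binding was not measured.

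Zfp36, the CCCH member, was among the most abundant and rose. Zfp36 read 84.6, 77.9, 90.5 and 68.8 TPM in SOD1-K123R and 33.21, 27.79, 28.01 and 36.2 TPM in SOD1-WT. Its lowest SOD1-K123R library was still nearly double its highest SOD1-WT library (log2 fold change 1.34, SE 0.11, limma adjusted p = 1.99e-07). Zfp36l1 and Zfp36l2, its relatives in the same family, were not analysed here. Zfp598, a ubiquitin ligase that senses collided ribosomes, rose by less, at 60.4, 56.5, 51.4 and 62.5 TPM in SOD1-K123R and 34.9, 32.7, 30.5 and 39.4 TPM in SOD1-WT (log2 fold change 0.73, SE 0.10). Zfp346, which binds double-stranded RNA, averaged 12.2 ± 0.700 TPM in SOD1-K123R and 7.01 ± 0.773 TPM in SOD1-WT (SD, n = 4 each). Zfp330, a cysteine-rich nucleolar protein, was the most abundant member and read 94.1, 106.3, 81.2 and 97.2 TPM in SOD1-K123R, against 41.5, 42.8, 45.0 and 42.0 TPM in SOD1-WT (log2 fold change 1.12, SE 0.09).

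Several members with known roles in transcription also rose. Zfp516, an activator of the brown fat gene program in mice, read 13.7 to 15.8 TPM in SOD1-K123R and 4.86 to 5.75 TPM in SOD1-WT (log2 fold change 1.26, SE 0.10). Zfp335, whose human counterpart is part of a histone H3 lysine methyltransferase complex, averaged 20.5 ± 1.09 TPM in SOD1-K123R and 9.44 ± 0.679 TPM in SOD1-WT (SD, n = 4 each). Zfp341, whose human counterpart activates STAT3 transcription, averaged 15.2 ± 0.688 TPM in SOD1-K123R and 7.22 ± 0.802 TPM in SOD1-WT (SD, n = 4 each). Both sets of groups were apart. Zfp496, a KRAB and SCAN domain protein that binds the methyltransferase NSD1 in mice, stood at 36.8 to 42.8 TPM in SOD1-K123R and 18.7 to 21.9 TPM in SOD1-WT. Zfp449, annotated with a SCAN domain, read 12.09, 13.24, 10.97 and 8.44 TPM in SOD1-K123R and 1.98, 3.34, 4.49 and 3.29 TPM in SOD1-WT (log2 fold change 1.53, SE 0.19). Its spread was wider than that of Zfp516, yet its groups did not overlap. Zfp956 (log2 fold change 1.46), Zfp775 (1.34) and Znf740 (1.10) rose as well, with means of 9.40, 14.2 and 34.6 TPM in SOD1-K123R against 2.74, 5.03 and 15.6 TPM in SOD1-WT. Zfp652, a repressor that works with CBFA2T3 in human cells, rose less (log2 fold change 0.67, SE 0.11), and Zfp819 had the smallest called increase (0.40, SE 0.12, limma adjusted p = 0.00624).

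Genes that fell were mostly at single-digit TPM. Zfp428 read 2.13, 2.91, 2.67 and 2.56 TPM in SOD1-K123R and 13.84, 12.05, 7.71 and 11.03 TPM in SOD1-WT (log2 fold change -1.75, SE 0.16, limma adjusted p = 3.92e-07). It was the only falling member with a mean above 5 TPM. Zfp764l1 read 0.82, 0.74, 0.46 and 0.74 TPM in SOD1-K123R and 4.26, 3.66, 3.56 and 4.88 TPM in SOD1-WT (log2 fold change -1.59, SE 0.13). Zfp512b stood at 1.74 to 1.98 TPM in SOD1-K123R and 5.98 to 7.80 TPM in SOD1-WT (log2 fold change -1.40, SE 0.12). Zfp469, whose human counterpart is mutated in brittle cornea syndrome, a disorder of collagen-rich matrix, read 2.40, 2.38, 1.41 and 2.79 TPM in SOD1-K123R and 5.90, 6.55, 6.01 and 9.52 TPM in SOD1-WT. The highest of its SOD1-K123R values lay below the lowest of its SOD1-WT values (log2 fold change -1.30, SE 0.17, limma adjusted p = 1.25e-05). The other large decreases were those of Zfp719 (-1.30), Zfp933 (-1.26), Zfp474 (-1.21), Zfp239 (-1.19), Zfp62 (-1.16) and Zfp518b (-1.09). Zfp239 corresponds to human MOK2, which binds DNA and RNA, and averaged 0.420 ± 0.136 TPM in SOD1-K123R and 2.25 ± 0.369 TPM in SOD1-WT (SD, n = 4 each). As ratios of group means the 18 decreases lay between 0.169 and 0.502, with a median of 0.314, and the 29 increases between 1.40 and 6.64, with a median of 2.25.

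KRAB genes moved both ways. By the KEGG orthology names in the table, 20 members were in the KRAB class, and 11 of them were tested, of which 7 rose and 4 fell (median log2 fold change 0.78). Those that rose were Zfp68, Zfp157, Zfp133, Zfp251, Zfp212, Zfp9 and Zfp819, and those that fell were Zfp719, Zfp764, Zfp324 and Zfp612. Zfp68 read 11.4, 12.3, 9.40 and 7.79 TPM in SOD1-K123R and 2.45, 3.85, 5.36 and 3.85 TPM in SOD1-WT (log2 fold change 1.22, SE 0.19). The 9 untested KRAB genes held 4 that were lower with groups apart and 5 whose groups overlapped, so the positive median holds for the tested ones only. Members with no orthology name split as 16 that rose and 13 that fell of 29 tested, and members with a gene ontology term for regulation of transcription as 18 and 11 of 29. Of all 47 tested members 29 rose and 18 fell, and of all genes tested 44.6% rose and 51.1% fell. The KRAB class holds only genes given that orthology name, and the proteins of the other members were not examined for the domain.

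Copies with a like or pseudogene symbol were mostly below 1 TPM. Of 19 members with such symbols, 5 were tested: Zfp790l3 and Znf709l rose, and Zfp764l1, Zfp120l1 and Zfp748-ps1 fell. Over all 19 the groups were apart downward for 9, apart upward for 1 and overlapping for 9, while the 66 members with other symbols were apart downward for 23, upward for 30 and overlapping for 13. All 38 members below 1 TPM were apart downward for 16, upward for 3 and overlapping for 19, so symbol and level cannot be told apart here. Of all rows 44.9% were apart downward and 37.5% upward. Zfp748-ps1 and Znf709l were among 3 tested members whose groups overlapped, with Zfp612. Zfp748-ps1 read 0.86, 1.59, 1.26 and 0.72 TPM in SOD1-K123R and 1.16, 2.41, 3.02 and 2.23 TPM in SOD1-WT (log2 fold change -0.59, limma adjusted p = 0.0107), and it was not called after median-of-ratios scaling or quantile normalization (limma adjusted p = 0.109 and 0.107). Reads from near-identical copies can be split between them, so the values of these members and of pairs such as Zfp764 and Zfp764l1 are uncertain.

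Among 9 pairs of members that are next to each other in the GRCr8 order of protein-coding genes, both genes were tested in 3. Zfp764l1 and Zfp764 both fell (log2 fold changes -1.59 and -0.90), Zfp212 and Zfp956 both rose (0.79 and 1.46), and Zfp719 fell beside Zfp819, which rose (-1.30 and 0.40). Neighbours therefore did not always share a direction.

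**Figure D3:**
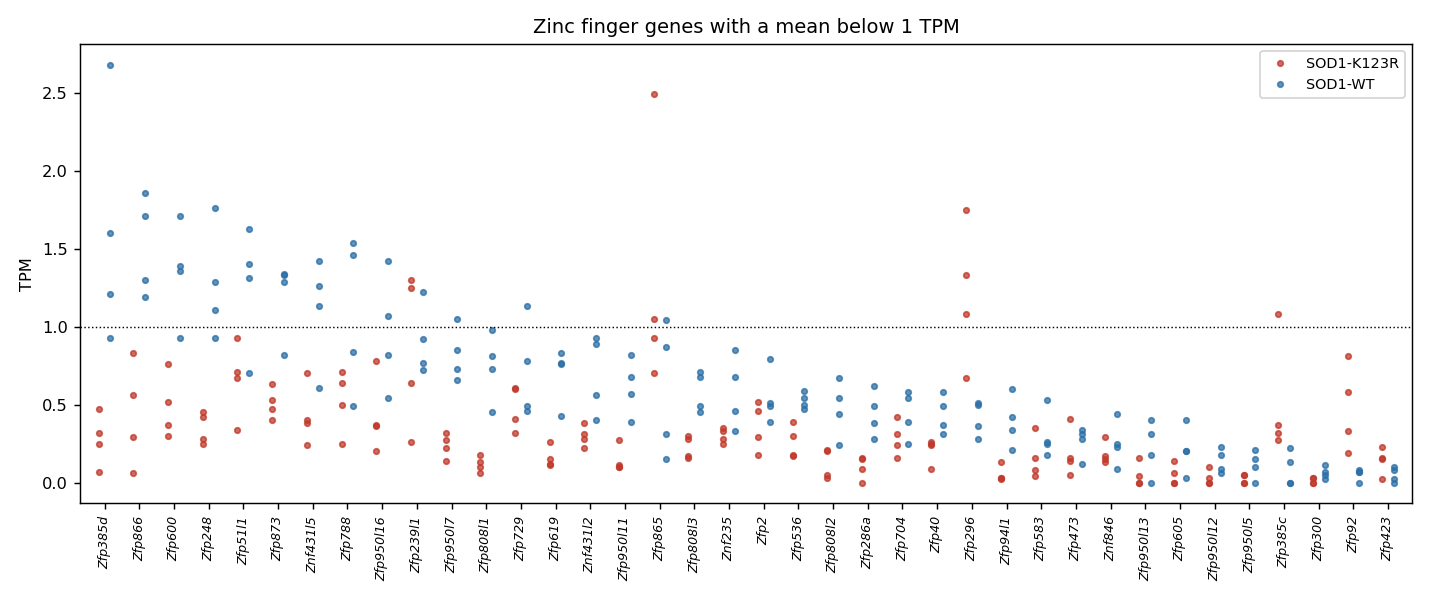
TPM of the 38 zinc finger genes with a mean below 1 TPM (dotted line), each point a library, with SOD1-K123R in red left of SOD1-WT in blue, ordered by the SOD1-WT mean. The highest single value is 2.68 TPM; groups are apart downward for 16 genes and upward for 3.

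The 38 members below 1 TPM together summed to 12.7 ± 2.92 TPM in SOD1-K123R and 23.7 ± 4.04 TPM in SOD1-WT (SD, n = 4 each). Zfp385d, a C2H2 gene singled out after its values were seen, read 0.32, 0.25, 0.07 and 0.47 TPM in SOD1-K123R and 0.93, 1.60, 1.21 and 2.68 TPM in SOD1-WT. The 3 that were higher with groups apart, also named after their values were seen, were Zfp296, Zfp92 and Zfp385c. Zfp296 read 1.75, 0.67, 1.33 and 1.08 TPM in SOD1-K123R and 0.51, 0.50, 0.28 and 0.36 TPM in SOD1-WT. Zfp423, a partner of SMAD and EBF factors in BMP signalling and fat cell commitment, was close to 0 in both groups, at 0.15, 0.23, 0.02 and 0.16 TPM in SOD1-K123R and 0, 0.10, 0.02 and 0.08 TPM in SOD1-WT. When all rows were fitted with no filter, 26 of the 38 passed, 23 lower and 3 higher, where 89.4% of all 4226 rows passed.

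Within each group 1 replicate often held the lowest value. SOD1-K123R replicate 3 held the lowest value of its group for 38 of 85 members (44.7%), against 35.7% of all rows, and SOD1-WT replicate 1 held the lowest value of its group for 51 members (60%), against 37.4% of all rows. Zfp449, Zfp68, Zfp157, Zfp81 and Zfp945 each had their lowest SOD1-WT value in replicate 1. Median-of-ratios size factors over the rows were 0.934, 0.966, 0.776 and 0.843 in SOD1-K123R and 1.06, 1.22, 1.38 and 1.27 in SOD1-WT, so these same replicates were also the lowest of their groups by that measure, and the part of scaling in the pattern was not tested.

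Partners of the KRAB proteins were mostly outside the table. Over all genes tested 44.6% rose and 51.1% fell. Of 46 listed genes of the TRIM28 and heterochromatin pathway 9 were among the rows, and 6 rose and 3 fell. Dnmt3a, a DNA methyltransferase, had the largest change, at 9.49, 10.8, 10.6 and 8.49 TPM in SOD1-K123R and 1.24, 1.68, 1.47 and 1.64 TPM in SOD1-WT (log2 fold change 2.11, SE 0.12, limma adjusted p = 8.95e-09). Atf7ip, the partner that stabilises SETDB1, rose (1.43), as did Gatad2b, a subunit of the NuRD complex (1.09). Uhrf1, which brings maintenance DNA methylation to replicated DNA, fell to 15.7 ± 1.17 TPM in SOD1-K123R, against 29.6 ± 2.78 TPM in SOD1-WT (SD, n = 4 each). Trim28 and Setdb1 themselves were not analysed here.

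Most of the listed mRNA decay genes among the rows rose, where 44.6% of all genes tested rose and 51.1% fell. Whether their changes are linked to that of Zfp36 was not tested. Of 35 listed genes of mRNA decay 8 were among the rows, of which 7 rose and Hnrnpd, an AU-rich element binding protein also called AUF1, fell (log2 fold change -1.17, SE 0.09). Tob1 and Btg1, antiproliferative proteins that bind the deadenylase complex, rose by 1.10 and 0.86 on the log2 scale, and Dcp1a, a decapping factor, by 1.21. Of 27 listed transcripts bound by ZFP36 proteins 13 were among the rows, and 8 rose, 3 fell and 2 did not pass, with 10, 3 and 0 after median-of-ratios scaling and 6, 4 and 3 after quantile normalization. Vegfa, the angiogenic factor, rose most (log2 fold change 2.51, SE 0.09) and Il6, a cytokine, fell most (-2.94, SE 0.18), while the protease genes Plau and Mmp9 rose (1.76 and 1.59). Their RNA stability was not measured.

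**Figure D4:**
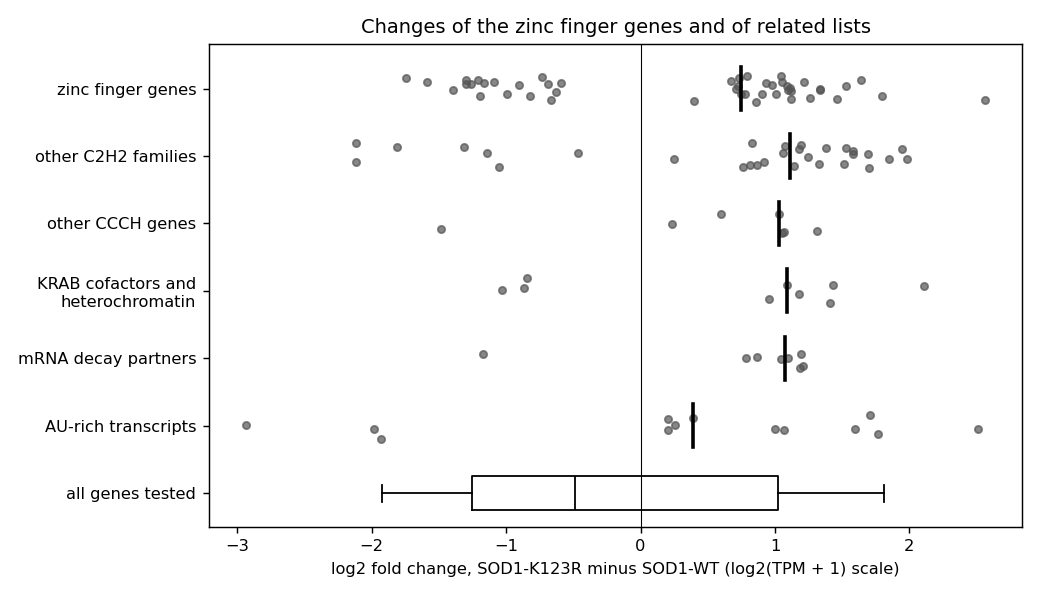
Log2 fold changes of SOD1-K123R minus SOD1-WT on the log2(TPM + 1) scale for tested genes, each point a gene and each bar the median, with a box for all genes tested (quartiles, whiskers at the 5th and 95th percentiles). The tested zinc finger genes fall into an upper and a lower cloud with no gene between -0.59 and 0.40. Of all genes tested only 8.44% lay between -0.5 and 0.5, and the median of all genes tested is -0.49.

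Zinc finger genes named by other family symbols mostly rose among those tested, where 44.6% of all genes tested rose and 51.1% fell. Of 38 such C2H2 genes among the rows (Klf, Sp, Zbtb, Prdm and others) 30 were tested, and 22 rose, 7 fell and 1, Egr2, did not pass (median log2 fold change 1.11, against 0.74 for the Zfp and Znf genes). With no filter 26 of the 38 rose and 9 fell (median 0.88), while 32 Zfp and Znf genes rose and 41 fell (median -0.18). Over all rows 1725 rose and 2055 fell in that fit. Whether the lists differ was not tested. Zbtb43 (1.51) and Bcl6 (1.58), a transcriptional repressor, rose, and Prdm8 (-2.11) and Zbtb45 (-2.11) fell. Of 7 tested CCCH genes by symbol 6 rose and Zc3h18, which links capped RNA to decay, fell (-1.48); Zc3h3, of mRNA polyadenylation and export, rose (1.31). The increase of Zc3h10 was small, with overlapping groups (0.24, limma adjusted p = 0.0371), and the list had 5 increases in place of 6 in 8 of 13 refits of the same 7 genes. These were quantile normalization, the replicate block, no mean-variance trend, and the fits without SOD1-K123R replicate 2, 3 or 4 or SOD1-WT replicate 3 or 4.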

How the data were processed

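The authors deposited TPM per gene for 8 RNA-seq libraries of rat nucleus pulposus cells (paired-end, 150 bases, Illumina NovaSeq, per the labels' protocols). RSEM made the TPM, per the table's name; the aligner, build and annotation are unstated in the sources used here. The authors used DESeq2 in a role not stated, per the submitters' processing notes. Groups follow titles and genotype labels; whether replicates were separate cultures is not stated, so the p-values cover the spread among these libraries, which may be technical.

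Rows with a mean of at least 1 TPM (2890 of 4226) were transformed to log2(TPM + 1), which understates changes of low genes, and fitted with limma 3.58.1 (trend) in R 4.3.3 for SOD1-K123R minus SOD1-WT; tests were two-sided, adjusted by Benjamini-Hochberg over all 2890. The fit was tested on simulated data. Members, lists and motifs were chosen with earlier results of these data known, the motifs after the fold changes were seen. The text names the 10 largest increases and decreases among called members with groups apart, the 6 highest means, members of a list with known roles, and up to 4 list genes with the smallest adjusted p; the others named were chosen after their values were seen. Symbols of 84 members were found in a RefSeq table of GRCr8, used for neighbours. Protein sequences were not used here, so the planned classes by protein motif gave way to the orthology names of the table, and promoters are printed. Errors are SD of 4 libraries or limma's SE. Alternatives covered pseudocount, filter, scaling, replicate block, trend and each library left out.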

Additional observations from a re-analysis of the deposited data

Results flagged for a closer look

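In 94 comparisons of 1 library with the rest of its group (47 tested members, 2 groups), 4 gaps exceeded the 95% limit for 4 samples, and chance flags about 5% of groups. Zfp212 read 16.1 TPM in SOD1-K123R replicate 4, below the rest of its group at 18.6 to 19.1 TPM. Zfp133 read 11.8 TPM in SOD1-K123R replicate 1, below the rest at 14.2 to 14.3 TPM. Znf740 read 14.3 TPM in SOD1-WT replicate 2, below the rest at 15.9 to 16.1 TPM, and Zfp341 read 8.42 TPM in SOD1-WT replicate 2, above the rest at 6.75 to 6.93 TPM. All 4 genes rose with each of these libraries left out.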

How the results depend on the processing

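With each library left out in turn, 29 members rose and 18 fell in each of the 8 fits, and the median log2 fold change of the members lay between 0.70 and 0.81. A pseudocount of 0.1 gave 29 and 18 with a median of 0.93. At a mean of at least 5 TPM, 19 rose and 1 fell (median 1.08). With no filter 32 rose and 41 fell, and the median over all 85 turned to -0.18. Median-of-ratios scaling, which moved the median of all genes by 0.35, gave a median of 1.15 and quantile normalization of 0.96; each left 29 rising and 17 falling, the call lost being that of Zfp748-ps1 (log2 fold changes -0.29 and -0.32, limma adjusted p = 0.109 and 0.107). No other tested member lost its call or turned its direction under any of the 15 refits in which it was tested. Replicate numbers gave no pairing (every correlation between same-numbered libraries was below 0.1, from -0.35 to 0.054, and 0 of 4 correlated best with their own number), and the replicate block gave 29 and 18 with a median of 0.74. Without Zfp36 the counts were 28 and 18. TPM hold no read counts, so the precision of members below 1 TPM is unknown.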
